A study of Homo sapiens with 16 samples.

Results

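The interaction of an siRNA against OCT4 with low oxygen was measured as a difference of differences in the translation ratio of H9 human embryonic stem cells. For each gene, the siOCT4 minus NC difference of the log2 ratio at 20% oxygen was subtracted from the same difference at 1% oxygen. A positive interaction means that siOCT4 moved the ratio further up, or less far down, at 1% than at 20%. The members were all genes with a ratio in each of the 8 columns of the deposited table, 15864 of 28252 genes. A further 4505 genes had a ratio in some columns and 7883 in none.

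Cells of 4 groups were compared: siOCT4 at 1% oxygen, NC at 1% oxygen, siOCT4 at 20% oxygen and NC at 20% oxygen. NC is the name the labels give to the arm without siOCT4. All groups are the H9 line grown without feeder cells in mTeSR1 medium, so they stand for 1 embryonic stem cell line. Each group has 2 labelled replicates, called cultures here. The labels do not say whether they were grown separately, so p-values measure only the spread between these samples. Per culture the authors sequenced total RNA and the RNA held in ribosome-nascent chain complexes (RNC), and the ratio is the RNC level over the RNA level.

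OCT4, encoded by POU5F1, is the transcription factor that with SOX2 and NANOG holds embryonic stem cells in the pluripotent state. Low oxygen stabilises the hypoxia-inducible factors (HIF), which raise transcription of glycolytic and angiogenic genes, and it also restrains protein synthesis through mTORC1 and through phosphorylation of eIF2α, which favours ATF4. Isolation of ribosome-nascent chain complexes collects messages that are being read by ribosomes, so a ratio above 1 means a higher level in ribosome-bound RNA than in total RNA on the scale the authors used, which is not given in the sources used here.

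The table holds ratios only. A change of the RNC level and a change of the RNA level cannot be told apart, nor, in bulk cultures, can fewer cells of a kind and less RNA per cell. The knockdown of OCT4, the oxygen response and the cell type could not be checked from ratios, nor could the assignment of the columns to the 4 groups, which rests on the column names alone. An exchange of columns between groups would change every interaction given here. Of the cell type it can be said only that 8 of 8 pluripotency markers (among them POU5F1, NANOG, SOX2 and LIN28A) had a ratio in every culture. Depth per library is not given in the sources used here. A ratio found in 3 or more genes of the same culture, to a relative tolerance of 2e-06, is called recurrent here. In 8166 members no ratio was recurrent.

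The ratio was spread widely in siOCT4 cells at 1% and in NC cells at 20%, and narrowly in the other 2 groups. The SD of the log2 ratio across genes was 1.32 and 1.34 in siOCT4 cells at 1%, against 0.76 and 0.78 in NC cells at 1%. At 20% oxygen it was 0.50 and 0.52 in siOCT4 cells, against 1.56 and 1.25 in NC cells. Across genes, which are not independent replicates and share the base composition described below, the cultures of siOCT4 at 1% correlated with those of NC at 20% at a Pearson r of 0.721 to 0.764, with r of -0.010 to 0.316 between siOCT4 and NC at 1% and 0.383 to 0.463 between siOCT4 and NC at 20%. As deposited, the cultures most alike across groups thus differed in both siRNA and oxygen. With the GC trend of each culture removed, Pearson r no longer separated them from the cultures at 20%. It was 0.319 to 0.336 between siOCT4 at 1% and NC at 20% and 0.306 to 0.330 between siOCT4 and NC at 20%. The Spearman correlations of these comparisons were 0.749 to 0.785 and 0.457 to 0.559 as deposited. With the trend removed their order was reversed, at 0.303 to 0.332 and 0.404 to 0.436.

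Most members passed the test of the interaction. With limma's adjusted p below 0.05, 10893 of 15864 genes passed (68.7%), 6736 with a positive interaction (42.5%) and 4157 with a negative one (26.2%). The median interaction over all genes was 0.49 on the log2 scale, with 5% of genes below -2.88 and 5% above 4.43. Centring every culture on its median lowers each interaction by 0.46. The siOCT4 difference itself passed for 9672 genes at 1% oxygen (61.0%) and for 8450 at 20% (53.3%). The 4 siOCT4 minus NC differences at 1% lay all above or all below the 4 at 20% for 12619 genes (79.5%), above for 7459 (47.0%) and below for 5160 (32.5%).

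Where it passed at both oxygen levels, the siRNA difference mostly changed sign between them. Of 6824 genes whose siOCT4 difference passed at both levels, 4820 (70.6%) were higher at 1% and lower at 20%, and 1873 (27.4%) were lower at 1% and higher at 20%. Only 88 were higher at both levels and 43 lower at both. Of all genes tested, 30.4% were higher at 1% and lower at 20%, and 11.8% the reverse, with both differences past the threshold.

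**Figure D1:**
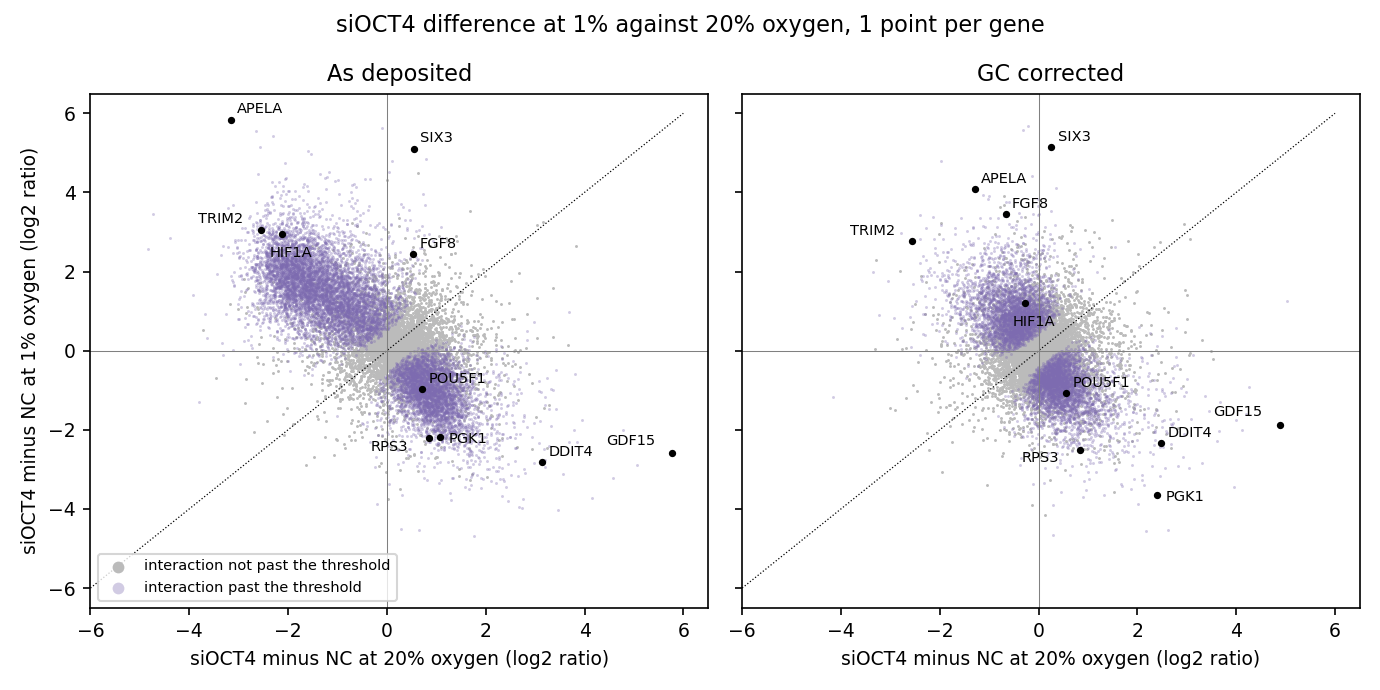
Each point is a gene, with the siOCT4 minus NC difference of the log2 translation ratio at 20% oxygen on the horizontal axis and at 1% on the vertical axis, as deposited on the left and with the GC trend of each culture removed on the right. On the dotted line the differences are equal; as deposited the genes run from upper left to lower right, 4820 being higher at 1% and lower at 20% among the 6824 that passed at both levels.

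Base composition of the transcript went with this pattern. The slope of the log2 ratio on transcript GC content, per 10 percentage points, was -1.24 and -1.27 in siOCT4 cells at 1%, against 0.015 and -0.28 in NC cells at 1%. At 20% oxygen it was -0.21 and -0.16 in siOCT4 cells, against -1.55 and -1.16 in NC cells. In both steep groups messages poor in G and C had high ratios and GC-rich messages low ones. The interaction of the slopes was -2.30 per 10 percentage points. An exact two-sided permutation test of siOCT4 at 1% and NC at 20% against the other 4 cultures gave p = 0.0286, the smallest that 70 arrangements allow. The same p was obtained for each of the 6 measures so tested, so the Benjamini-Hochberg value is also 0.0286. The test treats the 8 cultures as exchangeable, and the grouping follows from results that were known.

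Among the 535 genes under 38% GC the median interaction was 3.73, and 93.5% of them passed with a positive interaction. Among the 1722 genes of at least 62% GC the median was -2.09, and 68.6% passed with a negative one. The median ratio of the genes under 38% GC was 4.06 and 4.03 in siOCT4 cells at 1%, against 1.01 and 1.30 in NC cells at 1%, and 1.48 and 1.44 in siOCT4 cells at 20%, against 6.22 and 4.96 in NC cells at 20%. For the genes of at least 62% GC it was 0.438 and 0.425 in siOCT4 cells at 1%, against 1.03 and 0.756 in NC cells at 1%, and 0.975 and 1.03 in siOCT4 cells at 20%, against 0.361 and 0.607 in NC cells at 20%. At both extremes of GC content the ratios stayed closer to 1 in NC cells at 1% and siOCT4 cells at 20% than in the other 2 groups.

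**Figure D2:**
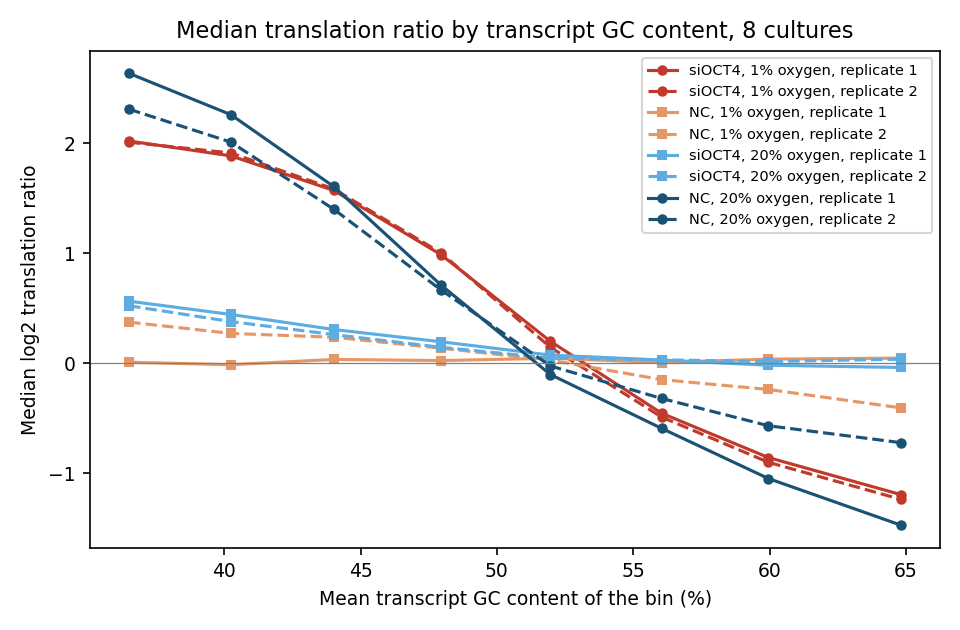
Median log2 translation ratio (vertical axis) of genes in 8 bins of transcript GC content (horizontal axis, mean percent of the bin), with 1 line per culture. The lines of siOCT4 at 1% and NC at 20% fall from above 2 to below -0.5 in log2, while those of the other 4 cultures stay between -0.5 and 0.6.

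The composition of the whole transcript accounted for most of the variance. Over 13117 mRNAs, whole-transcript GC content accounted for 67.8% of the variance of the interaction, GC content of the coding sequence for 61.2%, of the third codon bases for 59.0%, of the 3′ untranslated region for 54.6% and of the 5′ untranslated region for 6.02%. Non-coding RNAs, which are not read into long proteins, had the same sign of slope. The interaction fell by 1.73 per 10 percentage points of GC over 260 lincRNAs and by 1.79 over 348 antisense RNAs, against 2.33 over 14192 protein-coding genes. The cause of the GC trend was not tested.

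The starts of 6 coding sequences show the range of base composition behind these values. They are the first 90 bases from GENCODE release 29 on GRCh38, 5′ to 3′ on the coding strand, and capitals mark a G or C at the third base of a codon. APELA (chromosome 4, plus strand, start codon from base 164877332) and BUB1B (chromosome 15, plus strand, from 40161221) had positive interactions and fewer such codons, 11 and 15 of the 30 shown. GDF15 (chromosome 19, plus strand, from 18386190) and DUSP8 (chromosome 11, minus strand, from 1565826) had negative interactions and 25 and 27 of 30. PGK1 (chromosome X, plus strand, from 78104341) and FGF8 (chromosome 10, minus strand, from 101775900) are shown because they ran against the whole-transcript GC trend. PGK1 has a transcript of 43.3% GC and a negative interaction, and FGF8 one of 65.8% GC and a positive interaction. Codons with a G or C at the third base number 21 and 27 of the 30 shown. PGK1 is 50.3% GC in its coding sequence and 39.6% in its 3′ untranslated region, so the stretch shown is not its GC-poor part.
APELA: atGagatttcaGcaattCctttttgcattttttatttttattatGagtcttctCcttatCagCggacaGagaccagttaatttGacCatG
BUB1B: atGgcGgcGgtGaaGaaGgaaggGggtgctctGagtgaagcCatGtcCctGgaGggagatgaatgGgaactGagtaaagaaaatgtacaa
GDF15: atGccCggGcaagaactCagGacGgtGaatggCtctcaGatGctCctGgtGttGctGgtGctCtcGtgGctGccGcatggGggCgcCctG
DUSP8: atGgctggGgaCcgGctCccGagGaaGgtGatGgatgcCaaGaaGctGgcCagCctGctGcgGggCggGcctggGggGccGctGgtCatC
PGK1: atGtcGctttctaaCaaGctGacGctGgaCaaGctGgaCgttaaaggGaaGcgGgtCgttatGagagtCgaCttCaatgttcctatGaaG
FGF8: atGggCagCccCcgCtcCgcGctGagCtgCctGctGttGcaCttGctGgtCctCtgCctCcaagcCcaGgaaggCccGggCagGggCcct

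Each comparison is also given relative to the GC trend, that is, on residuals of the log2 ratio from a spline on transcript GC content fitted in each culture. A GC content was known for 15261 members (96.2%). After this correction 7022 genes passed (46.0%), 3542 with a positive (23.2%) and 3480 with a negative interaction (22.8%), around a median of -0.01. The share of positive calls was 50.4% after correction, against 61.8% as deposited. The siOCT4 difference passed for 7044 genes at 1% (46.2%) and for 2707 at 20% (17.7%). The count at 20% rested on single cultures: it was 4 without the first siOCT4 culture at 20%, 2 without the second, 813 without the first NC culture at 20%, and 1594 and 1587 without the first or the second siOCT4 culture at 1%. Among 1971 genes that passed at both levels after correction, 916 (46.5%) were higher at 1% and lower at 20%, and 903 (45.8%) were lower at 1% and higher at 20%.

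In both fits 4595 genes passed in the same direction, 2731 positive and 1864 negative. For 911 genes the correction turned the direction of the call, in 831 of them from a positive to a negative interaction. A stricter group of 3067 genes also had no recurrent ratio and differences at 1% that did not overlap those at 20%, 1784 positive and 1283 negative. Long messages leaned to positive values after correction: the median was 0.48 over 758 genes of at least 6000 nucleotides and -0.29 over 3229 genes under 1000.

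POU5F1, the target of the siRNA, had a negative interaction. At 1% oxygen POU5F1 read 0.453 and 0.532 in siOCT4 cells and 1.13 and 0.810 in NC cells, and at 20% it read 1.41 and 1.42 in siOCT4 cells and 0.758 and 0.981 in NC cells. In siOCT4 cells its ratio was the lowest of all groups at 1% and the highest at 20%, and the differences at the 2 oxygen levels did not overlap. For POU5F1 this gave an interaction of -1.68 ± 0.32 (SE; limma adjusted p = 0.0042), and of -1.64 ± 0.27 relative to the GC trend (adjusted p = 0.00533). As deposited, the siOCT4 difference was -0.96 at 1% oxygen (limma adjusted p = 0.0116) and 0.72 at 20% (adjusted p = 0.0383). Relative to the GC trend it was -1.08 at 1% (limma adjusted p = 0.00671). At 20% it was then 0.56 and did not pass (limma adjusted p = 0.0979). Its transcript is of middling composition, 52.7% GC. The ratio says nothing about how much POU5F1 RNA the siRNA left. Here and in what follows, interactions are log2 values ± SE from 2 cultures per group, and those of every gene given such a value passed limma at the adjusted threshold of 0.05 in both fits, with the exception of SOX17 after correction. Where 2 values are given for a gene, the first is as deposited and the second relative to the GC trend.

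The largest positive interaction among the genes that met the naming rule was that of APELA, the gene of a secreted peptide hormone (Elabela) of embryonic stem cells that signals through the apelin receptor. The ratio of APELA was 3.36 and 4.91 in siOCT4 cells and 0.0666 and 0.0757 in NC cells at 1% oxygen, and 1.77 and 1.67 in siOCT4 cells and 18.2 and 12.9 in NC cells at 20%. Only NC cells at 1% were far below 1, while NC cells at 20% were the highest. The interaction of APELA was 8.99 ± 0.35 (SE; limma adjusted p = 8.04e-05) and, GC corrected, 5.37 ± 0.28 (adjusted p = 0.000805). At 36.5% GC, APELA lost a part of its interaction to the trend and kept the direction.

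TRIM2, an E3 ubiquitin ligase, IPO7, a nuclear import receptor, and ABCA1, the transporter that exports cholesterol from cells, differ in function and had profiles of the same shape. TRIM2 had ratios of 5.13 and 4.28 in siOCT4 cells at 1%, against 0.486 and 0.652 in NC cells at 1%, and 1.13 and 1.15 in siOCT4 cells at 20%, against 7.20 and 6.19 in NC cells at 20%. At 1% oxygen IPO7 read 5.79 and 5.28 in siOCT4 cells and 0.458 and 0.573 in NC cells, and at 20% it read 0.945 and 0.943 in siOCT4 cells and 5.61 and 4.55 in NC cells. The ratio of ABCA1 was 4.09 and 3.30 in siOCT4 cells and 0.240 and 0.300 in NC cells at 1% oxygen, and 0.924 and 0.974 in siOCT4 cells and 4.23 and 3.73 in NC cells at 20%. In all 3 genes siOCT4 cells at 1% and NC cells at 20% were at more than 3, NC cells at 1% were below 1 and siOCT4 cells at 20% were near 1. For TRIM2 this gave an interaction of 5.61 ± 0.28 (SE; limma adjusted p = 8.04e-05), and of 5.32 ± 0.35 relative to the GC trend (adjusted p = 0.000855). The interaction of IPO7 was 5.85 ± 0.25 (SE; limma adjusted p = 8.04e-05) and, GC corrected, 4.95 ± 0.26 (adjusted p = 0.000805). For ABCA1 this gave an interaction of 5.84 ± 0.26 (SE; limma adjusted p = 8.04e-05), and of 4.79 ± 0.23 relative to the GC trend (adjusted p = 0.000805).

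REST, the repressor of neuronal genes, and CIPC, a repressor of the CLOCK transcription factor, repeated this profile at a composition of 51.8% and 54.3% GC. REST had ratios of 4.52 and 4.67 in siOCT4 cells at 1%, against 0.910 and 1.22 in NC cells at 1%, and 1.03 and 1.01 in siOCT4 cells at 20%, against 5.19 and 4.34 in NC cells at 20%. At 1% oxygen CIPC read 4.59 and 3.42 in siOCT4 cells and 0.778 and 0.844 in NC cells, and at 20% it read 1.21 and 1.20 in siOCT4 cells and 4.97 and 4.64 in NC cells. The NC cultures at 1% were near 1 for REST and below 1 for CIPC. The interaction of REST was 4.34 ± 0.26 (SE; limma adjusted p = 8.11e-05) and, GC corrected, 4.14 ± 0.35 (adjusted p = 0.00108). For CIPC this gave an interaction of 4.29 ± 0.25 (SE; limma adjusted p = 8.04e-05), and of 4.72 ± 0.37 relative to the GC trend (adjusted p = 0.000998). STOX2, the actin-binding RAI14, the tubulin carboxypeptidase VASH2, the cytochrome P450 CYP1B1 and the zinc finger gene ZNF879 completed the 12 positive genes of the rule, with interactions of 4.13, 5.06, 4.15, 4.47 and 4.77 as deposited and 4.15, 4.14, 4.42, 4.27 and 4.62 after correction. The NC cultures at 20% disagreed for ZNF879, at 16.1 and 3.37, its SE was 0.96, and its call was lost after quantile normalization (limma adjusted p = 0.0580) and, GC corrected, without 3 of the 8 cultures in turn (adjusted p up to 0.0538).

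SIX3, a homeobox factor of the forebrain and eye, reached its interaction in another way. The ratio of SIX3 was 1.47 and 0.837 in siOCT4 cells and 0.0600 and 0.0172 in NC cells at 1% oxygen, and 1.21 and 1.23 in siOCT4 cells and 0.789 and 0.895 in NC cells at 20%. Here NC cells at 1% alone stood apart, far below 1, and the other 3 groups lay near 1. The interaction of SIX3 was 4.57 ± 0.87 (SE; limma adjusted p = 0.00441) and, GC corrected, 4.89 ± 0.83 (adjusted p = 0.00632). Its siOCT4 difference was 5.11 at 1% (limma adjusted p = 0.00100) and 0.54 at 20% (adjusted p = 0.480).

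**Figure D3:**
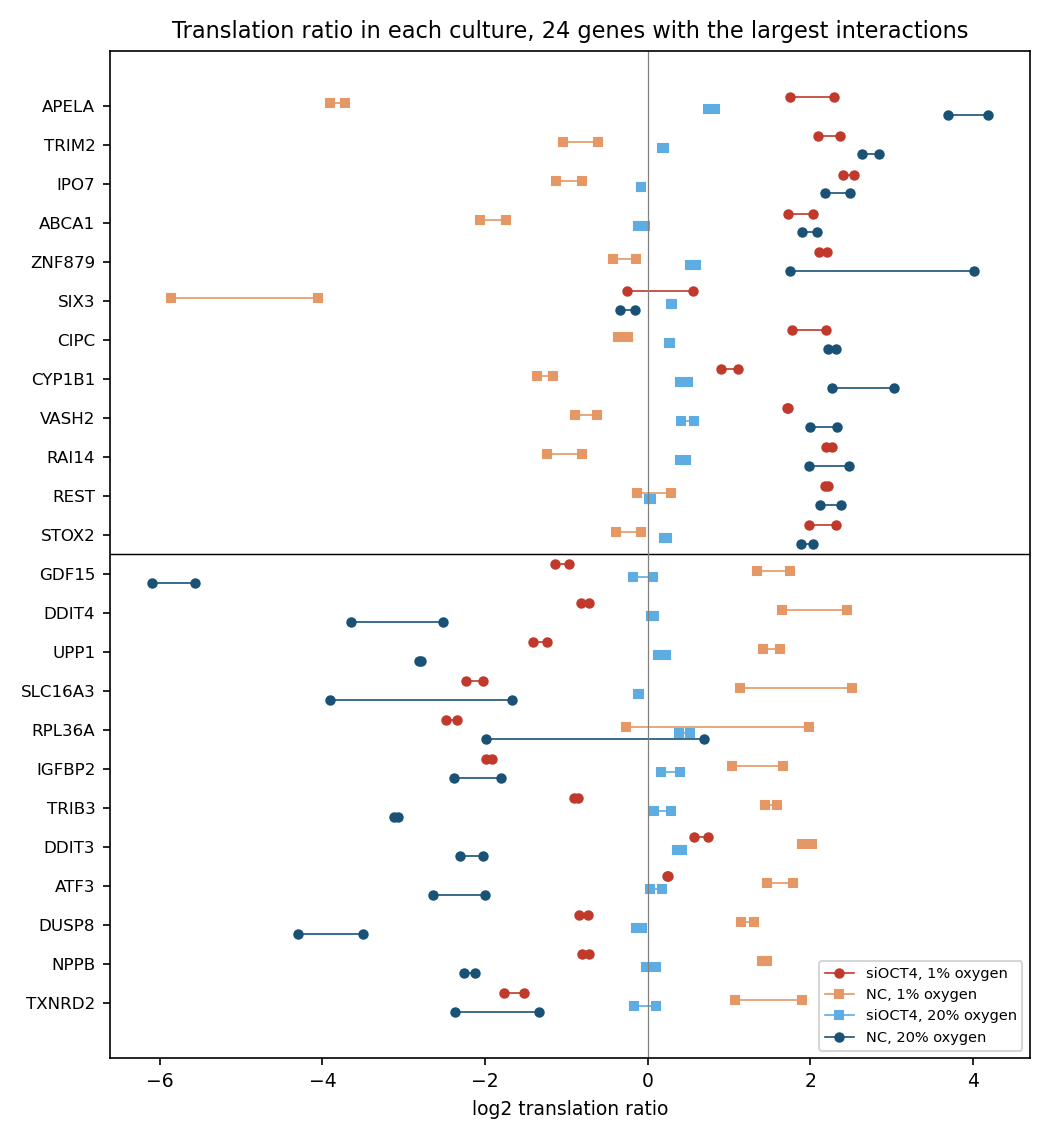
Log2 translation ratio (horizontal axis) of the 12 genes with the largest positive and the 12 with the largest negative interaction under the naming rule; points are the 2 cultures of a group, joined by a line. APELA ran from 0.0666 in an NC culture at 1% to 18.2 in an NC culture at 20%, and GDF15 from 0.0146 in an NC culture at 20% to 3.36 in an NC culture at 1%.

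Genes of the cellular stress response made up 5 of the 12 negative genes of the rule. GDF15, a secreted stress cytokine, had the largest negative interaction under the rule. GDF15 had ratios of 0.510 and 0.455 in siOCT4 cells at 1%, against 3.36 and 2.54 in NC cells at 1%, and 0.884 and 1.04 in siOCT4 cells at 20%, against 0.0146 and 0.0210 in NC cells at 20%. NC cells at 20% were lowest by a wide margin and NC cells at 1% highest. For GDF15 this gave an interaction of -8.38 ± 0.44 (SE; limma adjusted p = 8.04e-05), and of -6.75 ± 0.20 relative to the GC trend (adjusted p = 0.000805).

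DDIT4, the hypoxia- and stress-induced inhibitor of mTORC1, and TRIB3, a pseudokinase of the ATF4 programme, followed the same order of groups. At 1% oxygen DDIT4 read 0.609 and 0.565 in siOCT4 cells and 5.47 and 3.13 in NC cells, and at 20% it read 1.06 and 1.03 in siOCT4 cells and 0.0795 and 0.174 in NC cells. The ratio of TRIB3 was 0.550 and 0.535 in siOCT4 cells and 3.02 and 2.72 in NC cells at 1% oxygen, and 1.22 and 1.06 in siOCT4 cells and 0.115 and 0.119 in NC cells at 20%. In both genes NC cells at 1% were highest and NC cells at 20% lowest, and siOCT4 cells were below 1 at 1% and near 1 at 20%. The interaction of DDIT4 was -5.96 ± 0.61 (SE; limma adjusted p = 0.000354) and, GC corrected, -4.81 ± 0.42 (adjusted p = 0.00119). For TRIB3 this gave an interaction of -5.68 ± 0.23 (SE; limma adjusted p = 8.04e-05), and of -3.97 ± 0.28 relative to the GC trend (adjusted p = 0.000855).

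DDIT3, which encodes CHOP, and ATF3 are transcription factors of the same programme, and their transcripts are of middling composition, 50.6% and 50.9% GC. DDIT3 had ratios of 1.67 and 1.49 in siOCT4 cells at 1%, against 4.04 and 3.73 in NC cells at 1%, and 1.28 and 1.34 in siOCT4 cells at 20%, against 0.201 and 0.245 in NC cells at 20%. At 1% oxygen ATF3 read 1.19 and 1.18 in siOCT4 cells and 3.46 and 2.77 in NC cells, and at 20% it read 1.02 and 1.13 in siOCT4 cells and 0.161 and 0.249 in NC cells. Ratios in NC cells at 20% were the lowest and those in NC cells at 1% the highest for both. The interaction of DDIT3 was -3.86 ± 0.21 (SE; limma adjusted p = 8.04e-05) and, GC corrected, -4.38 ± 0.19 (adjusted p = 0.000805). For ATF3 this gave an interaction of -3.82 ± 0.34 (SE; limma adjusted p = 0.000201), and of -4.28 ± 0.32 relative to the GC trend (adjusted p = 0.000933). Correction for GC content enlarged both interactions.

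Of the 35 listed genes of the integrated stress response, the pathway in which phosphorylated eIF2α raises ATF4, 5 had a positive and 27 a negative interaction past the threshold, around a median of -2.46. The counts became 1 positive and 29 negative relative to the GC trend, and the median -2.01. The median ratio of the list was 0.730 and 0.721 in siOCT4 cells at 1%, against 1.95 and 1.80 in NC cells at 1%, and 1.00 and 1.06 in siOCT4 cells at 20%, against 0.379 and 0.474 in NC cells at 20%. The order of the groups was thus that of GDF15 and TRIB3.

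Other negative genes of the rule had varied roles. UPP1, a uridine phosphorylase, had -5.82 ± 0.24 as deposited and -4.70 ± 0.21 after correction (SE). IGFBP2, which binds insulin-like growth factors, had -5.67 ± 0.42 and -4.12 ± 0.20. NPPB, the gene of a natriuretic peptide, had -4.43 ± 0.20 and -3.55 ± 0.23. TXNRD2, the mitochondrial thioredoxin reductase, had -4.96 ± 0.60 and -3.46 ± 0.37. All 4 had their highest ratios in NC cells at 1% and ratios below 1 in siOCT4 cells at 1% and in NC cells at 20%. That their differences did not overlap between the oxygen levels was a condition of the rule.

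Immediate early genes, whose transcription starts within minutes of a stimulus, were also on the negative side. DUSP8 is a phosphatase of MAP kinases. The ratio of DUSP8 was 0.599 and 0.558 in siOCT4 cells and 2.47 and 2.22 in NC cells at 1% oxygen, and 0.949 and 0.907 in siOCT4 cells and 0.0510 and 0.0882 in NC cells at 20%. NC cells at 20% were lowest and NC cells at 1% highest. The interaction of DUSP8 was -5.81 ± 0.42 (SE; limma adjusted p = 0.000105) and, GC corrected, -3.75 ± 0.19 (adjusted p = 0.000805). JUN, a subunit of the AP-1 factor, had -4.36 ± 0.28 and, after correction, -3.45 ± 0.18, and IER5 had -2.43 ± 0.53 and -3.22 ± 0.54. Of the 25 listed genes, 2 had a positive and 16 a negative interaction past the threshold, around a median of -1.96. After correction 1 passed as positive and 8 as negative, with a median of -0.60. The share of negative calls was then 32.0%, against 22.8% of all genes.

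Glycolytic genes, the best known targets of HIF, moved the same way. PGK1 encodes phosphoglycerate kinase. PGK1 had ratios of 0.465 and 0.461 in siOCT4 cells at 1%, against 2.21 and 1.98 in NC cells at 1%, and 0.821 and 0.838 in siOCT4 cells at 20%, against 0.417 and 0.373 in NC cells at 20%. Only NC cells at 1% were above 1. For PGK1 this gave an interaction of -3.25 ± 0.21 (SE; limma adjusted p = 8.51e-05), and of -6.03 ± 0.28 relative to the GC trend (adjusted p = 0.000805). Its negative value, at 43.3% GC, became larger when the trend was removed. SLC16A3, the lactate exporter MCT4, had -6.62 ± 1.12 and, after correction, -4.55 ± 0.76, with NC cultures at 20% of 0.0668 and 0.315. ALDOC, an aldolase, had -3.93 ± 0.33 and -3.24 ± 0.24. Of the 23 listed genes of glycolysis and lactate handling, 2 had a positive and 18 a negative interaction past the threshold, around a median of -2.50. GC corrected, 2 were positive and 19 negative, around -1.66.

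Other HIF-responsive genes had calls in both directions, with a larger negative share than all genes. Of 33 measured members, 13 had a positive and 15 a negative interaction past the threshold, around a median of -0.57. These shares were 39.4% and 45.5%, against 42.5% and 26.2% of all genes. The counts became 4 positive and 13 negative relative to the GC trend, and the median -0.42. The shares were then 12.1% and 39.4%, against 23.2% and 22.8% of all genes. BHLHE40, a transcriptional repressor of the clock, had ratios of 1.92 and 1.84 in siOCT4 cells at 1%, against 3.06 and 3.29 in NC cells at 1%, and 0.918 and 0.953 in siOCT4 cells at 20%, against 0.167 and 0.148 in NC cells at 20%. Its interaction was -3.32 ± 0.18 and -3.47 ± 0.18 after correction, and that of STC2, a secreted glycoprotein, was -3.07 ± 0.24 and -3.22 ± 0.19.

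The oxygen sensors and HIF subunits themselves did not share a direction. HIF1A, the oxygen-regulated subunit, is AT-rich at 37.3% GC. At 1% oxygen HIF1A read 5.31 and 5.42 in siOCT4 cells and 0.591 and 0.812 in NC cells, and at 20% it read 1.24 and 1.22 in siOCT4 cells and 6.10 and 4.64 in NC cells. Ratios in siOCT4 cells at 1% and NC cells at 20% were near 5, and those in NC cells at 1% were the lowest. The interaction of HIF1A was 5.07 ± 0.30 (SE; limma adjusted p = 8.04e-05) and, GC corrected, 1.46 ± 0.14 (adjusted p = 0.00127). VHL, the recognition subunit of the ligase that removes HIF, had -0.55 ± 0.20 as deposited and -2.35 ± 0.22 after correction, and the first of these calls was lost without 7 of the 8 cultures in turn, with limma adjusted p up to 0.136, and with the replicate block (adjusted p = 0.0824). KDM6A, an oxygen-sensitive histone demethylase, had 3.55 ± 0.26 and 0.78 ± 0.17, and its call was lost when transcript length was removed as well (adjusted p = 0.102) and, GC corrected, without 1 of the 8 cultures (adjusted p = 0.0632). Of the 13 listed genes, 7 had a positive and 3 a negative interaction past the threshold, around a median of 0.75. After correction 3 passed as positive and 4 as negative, with a median of 0.16. The corrected positive share of 23.1% was near the 23.2% of all genes, and the negative share was 30.8%, against 22.8%.

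Genes of the pluripotent state leaned to positive interactions. USP44 is a deubiquitinase of the spindle checkpoint that is abundant in embryonic stem cells. The ratio of USP44 was 7.36 and 5.13 in siOCT4 cells and 0.412 and 0.501 in NC cells at 1% oxygen, and 1.62 and 1.90 in siOCT4 cells and 12.6 and 9.70 in NC cells at 20%. NC cells at 20% were highest, siOCT4 cells at 1% came next and NC cells at 1% were lowest. For USP44 this gave an interaction of 6.41 ± 0.35 (SE; limma adjusted p = 8.04e-05), and of 3.35 ± 0.31 relative to the GC trend (adjusted p = 0.00122). Of the 46 listed pluripotency genes, all measured, 27 had a positive and 4 a negative interaction past the threshold, around a median of 1.59. GC corrected, 25 were positive and 8 negative, around 1.17. The median ratio of the list was 1.43 and 1.07 in siOCT4 cells at 1%, against 0.505 and 0.523 in NC cells at 1%, and 1.14 and 1.23 in siOCT4 cells at 20%, against 1.13 and 1.26 in NC cells at 20%. NC cells at 1% alone were apart. POU5F1 was among the members with a negative interaction.

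Signalling genes of stem cells leaned the same way after correction, and had few negative calls as deposited. ID2, an inhibitor of basic helix-loop-helix factors and a BMP target, had ratios of 2.00 and 1.76 in siOCT4 cells at 1%, against 0.261 and 0.317 in NC cells at 1%, and 1.56 and 1.63 in siOCT4 cells at 20%, against 3.97 and 2.95 in NC cells at 20%. The interaction of ID2 was 3.81 ± 0.28 (SE; limma adjusted p = 0.000109) and, GC corrected, 4.01 ± 0.33 (adjusted p = 0.00104). GREM1, a secreted BMP antagonist, had 3.96 ± 0.31 and 2.57 ± 0.35, whereas TGFBI, a matrix protein induced by TGF-beta, had -1.97 ± 0.26 and -3.06 ± 0.23. Of 26 measured genes of the TGF-beta, activin, BMP and WNT pathways, 10 had a positive and 1 a negative interaction past the threshold, around a median of 0.85. The positive share of 38.5% was below the 42.5% of all genes, and the negative share was 3.85%, against 26.2%. The counts became 12 positive and 2 negative relative to the GC trend, and the median 1.04. The positive share was then 46.2%, against 23.2% of all genes.

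FGF signalling sustains human embryonic stem cells in culture. FGF8 is an FGF ligand. FGF8 had ratios of 0.622 and 0.366 in siOCT4 cells at 1%, against 0.0646 and 0.120 in NC cells at 1%, and 1.12 and 1.29 in siOCT4 cells at 20%, against 0.912 and 0.759 in NC cells at 20%. NC cells at 1% were lowest and siOCT4 cells at 1% next. For FGF8 this gave an interaction of 1.90 ± 0.58 (SE; limma adjusted p = 0.0271), and of 4.12 ± 0.81 relative to the GC trend (adjusted p = 0.0101). The call as deposited was lost without 5 of the 8 cultures in turn (limma adjusted p up to 0.0920), after centring on the median (adjusted p = 0.0621) and after quantile normalization (adjusted p = 0.0977). FGFR2, a receptor, had 2.03 ± 0.23 and 1.66 ± 0.21, and IL17RD, an inhibitor of the pathway, 2.17 ± 0.20 and 1.14 ± 0.15. Of 18 measured genes, 13 had a positive and 3 a negative interaction past the threshold, around a median of 1.66. After correction 9 passed as positive and 2 as negative, with a median of 0.91.

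Anterior neural markers included genes with low ratios in NC cells at 1%. FEZF1, a forebrain zinc finger factor, had ratios of 0.932 and 1.32 in siOCT4 cells at 1%, against 0.134 and 0.227 in NC cells at 1%, and 1.34 and 0.989 in siOCT4 cells at 20%, against 1.53 and 1.58 in NC cells at 20%. The interaction of FEZF1 was 3.10 ± 0.45 (SE; limma adjusted p = 0.00144) and, GC corrected, 4.22 ± 0.53 (adjusted p = 0.00253). MAP2, a neuronal microtubule protein, had 3.27 ± 0.35 and 1.68 ± 0.33. Of 21 measured markers, 9 had a positive and 3 a negative interaction past the threshold, around a median of 1.62. The positive share of 42.9% was near the 42.5% of all genes, and the negative share was 14.3%, against 26.2%. GC corrected, 8 were positive and 0 negative, around 0.90. The positive share was then 38.1%, against 23.2% of all genes. Recurrent ratios were absent from only 5 of these 21 genes.

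Markers of other lineages were less often measured. Of 23 listed trophectoderm and amnion markers 15 were members, and of these 1 had a positive and 8 a negative interaction past the threshold, around a median of -1.97. The counts became 2 positive and 5 negative relative to the GC trend, and the median -0.87. The negative share was 53.3% as deposited, against 26.2% of all genes, and 33.3% after correction, against 22.8%. Recurrent ratios were absent from only 4 of these 15 genes. The simple-epithelium keratins KRT8, KRT18 and KRT19 had -2.66 ± 0.40, -1.97 ± 0.29 and -2.55 ± 0.27, with ratios of 0.308 to 0.424 in siOCT4 cells at 1%, against 0.806 to 1.09 in NC cells at 1%. After correction they had -1.43 ± 0.20, -0.75 ± 0.15 and -0.87 ± 0.25. The corrected call of KRT19 was lost without 6 of the 8 cultures in turn (limma adjusted p up to 0.103), with the replicate block (adjusted p = 0.0585) and when length was removed as well (adjusted p = 0.0736), and that of KRT18 as deposited was lost after quantile normalization (adjusted p = 0.0732). Of 15 measured markers of primitive streak, mesoderm and endoderm, 3 had a positive and 3 a negative interaction past the threshold, around a median of 0.04. After correction 3 passed as positive and 2 as negative, with a median of -0.32. Positive and negative shares were 20.0% and 20.0% as deposited, against 42.5% and 26.2% of all genes. After correction they were 20.0% and 13.3%, against 23.2% and 22.8%. Every one of these 15 genes had a recurrent ratio. The largest value there was that of SOX17, an endoderm factor, at -5.12 ± 1.62 (limma adjusted p = 0.0315), but its NC cultures at 1% disagreed by more than 10 times, 3 of its ratios were recurrent, the call was lost without 5 of the 8 cultures in turn (adjusted p up to 0.0907), and after correction it was -3.95 ± 1.64 (adjusted p = 0.101).

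**Figure D4:**
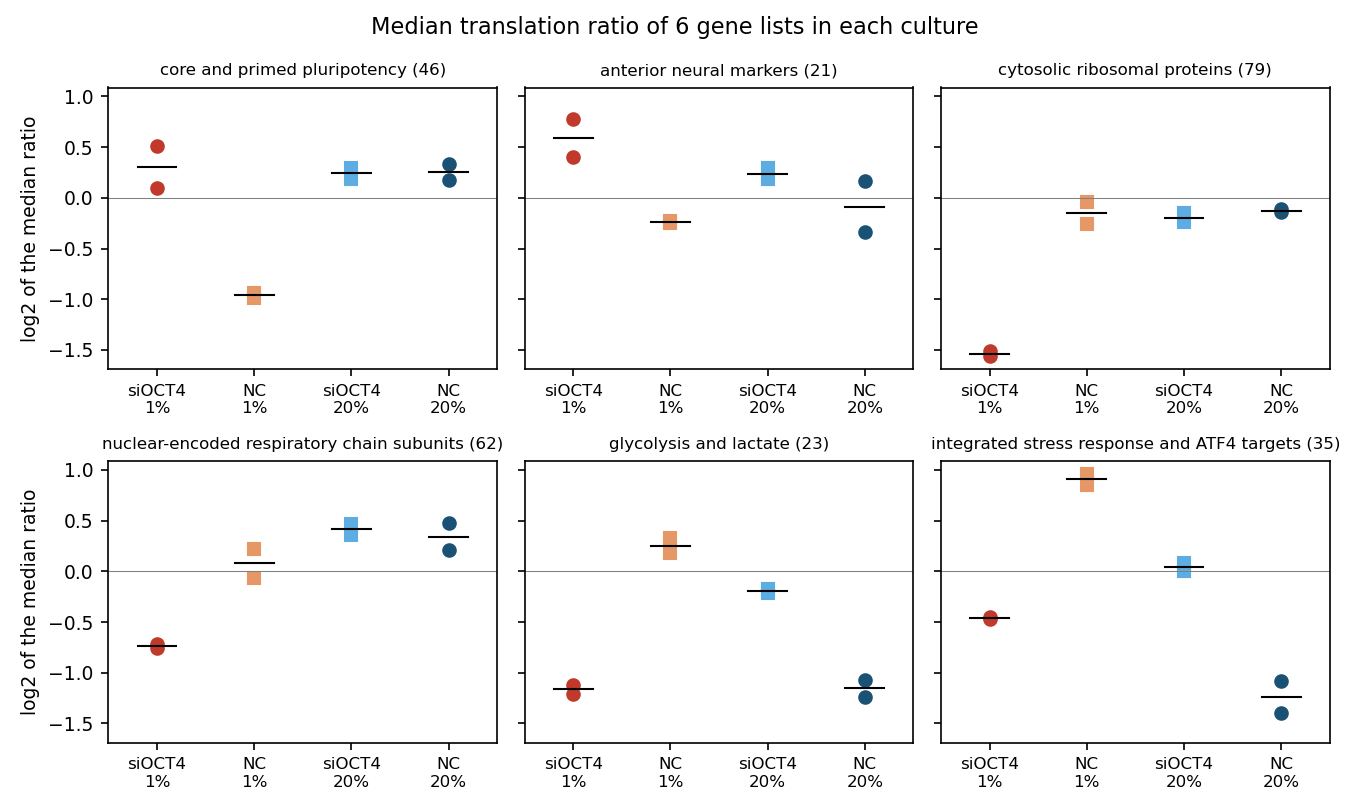
Median translation ratio of 6 gene lists in each culture (points, log2 on the vertical axis) with the mean of the 2 cultures of a group (bars). For pluripotency genes NC at 1% was lowest at 0.505 and 0.523, for ribosomal protein genes siOCT4 at 1% was lowest at 0.338 and 0.350, and for stress response genes NC at 1% was highest at 1.95 and 1.80.

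In the messages of cytosolic ribosomal proteins, siOCT4 cells at 1% alone stood apart. The median ratio of the 79 genes was 0.338 and 0.350 in siOCT4 cells at 1%, against 0.969 and 0.838 in NC cells at 1%, and 0.846 and 0.902 in siOCT4 cells at 20%, against 0.909 and 0.924 in NC cells at 20%. Of these, 6 had a positive and 51 a negative interaction past the threshold, around a median of -1.40. GC corrected, 0 were positive and 67 negative, around -1.67. With transcript length removed as well, 1 was positive and 62 were negative. RPS3, a small-subunit protein, had ratios of 0.271 and 0.271 in siOCT4 cells at 1%, against 1.52 and 1.04 in NC cells at 1%, and 0.813 and 0.856 in siOCT4 cells at 20%, against 0.386 and 0.557 in NC cells at 20%. For RPS3 this gave an interaction of -3.06 ± 0.39 (SE; limma adjusted p = 0.000783), and of -3.34 ± 0.35 relative to the GC trend (adjusted p = 0.00146). RPL36A had the largest value, -4.37 ± 1.47 (limma adjusted p = 0.0394), but its cultures disagreed, at 3.95 and 0.828 in NC cells at 1% and 0.251 and 1.62 in NC cells at 20%, and the call was lost without 6 of the 8 cultures in turn (adjusted p up to 0.105) and with the replicate block (adjusted p = 0.0609). After correction it was -6.73 ± 1.60, and that call was lost without 4 of the 8 cultures (adjusted p up to 0.0603). Ribosomal protein genes have many near-identical pseudogenes, and how the authors divided shared reads is not given in the sources used here.

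Nuclear-encoded subunits of the respiratory chain behaved likewise. COX5B, of cytochrome c oxidase, had ratios of 0.356 and 0.319 in siOCT4 cells at 1%, against 1.72 and 1.05 in NC cells at 1%, and 1.24 and 1.29 in siOCT4 cells at 20%, against 0.831 and 1.15 in NC cells at 20%. Its siOCT4 cultures at 1% lay below all others. The interaction of COX5B was -2.37 ± 0.40 (SE; limma adjusted p = 0.00256) and, GC corrected, -2.51 ± 0.36 (adjusted p = 0.00369). NDUFB2 and NDUFB8, of complex I, had -2.14 ± 0.28 and -2.64 ± 0.29 as deposited, and -2.90 ± 0.27 and -2.11 ± 0.21 after correction. Of 62 measured subunits, 8 had a positive and 29 a negative interaction past the threshold, around a median of -0.55. The counts became 1 positive and 43 negative relative to the GC trend, and the median -1.26. The negative share was 46.8% and then 69.4%, against 26.2% and 22.8% of all genes. Among 76 mitochondrial ribosomal proteins, which translate the mitochondrial messages, 27 had a positive and 31 a negative interaction past the threshold, around a median of -0.06. After correction 5 passed as positive and 36 as negative, with a median of -0.67. Their negative share was 40.8% and then 47.4%, against 26.2% and 22.8% of all genes. MRPL28, MRPL10 and MRPS18B had -3.18 ± 0.57, -1.82 ± 0.18 and -1.49 ± 0.19 as deposited, and -1.51 ± 0.32, -1.46 ± 0.13 and -1.43 ± 0.15 after correction.

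snoRNA host transcripts, many of which begin with the same oligopyrimidine motif as ribosomal protein messages, leaned negative after correction. SNHG8 had ratios of 0.422 and 0.465 in siOCT4 cells at 1%, against 1.81 and 1.31 in NC cells at 1%, and 1.19 and 1.19 in siOCT4 cells at 20%, against 0.973 and 1.13 in NC cells at 20%. The siOCT4 cultures at 1% were the lowest. For SNHG8 this gave an interaction of -1.98 ± 0.27 (SE; limma adjusted p = 0.00112), and of -5.05 ± 0.40 relative to the GC trend (adjusted p = 0.00102). SNHG15 and SNHG11 had -2.77 ± 0.37 and -3.14 ± 0.37 as deposited, and -2.31 ± 0.30 and -1.87 ± 0.44 after correction. The corrected call of SNHG11 was lost without 3 of the 8 cultures in turn (limma adjusted p up to 0.0596). Of 19 measured hosts, 3 had a positive and 9 a negative interaction past the threshold, around a median of -0.55. GC corrected, 0 were positive and 15 negative, around -2.09. Among 14 long non-coding RNAs of the nucleus, 8 had a positive and 1 a negative interaction past the threshold, around a median of 1.61. The counts became 3 positive and 1 negative relative to the GC trend, and the median -0.67. The corrected positive share of 21.4% was near the 23.2% of all genes. Recurrent ratios were absent from only 5 of these 14 RNAs. TUG1 had 4.63 ± 0.26 and 1.49 ± 0.15, and OIP5-AS1, whose reads cannot be told apart from those of its antisense partner if strand was not used, 2.97 ± 0.21 and 1.09 ± 0.17.

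The translation machinery outside the ribosome was split. Positive shares of the translation factors and synthetases, 46.2% and 41.0% as deposited, were near the 42.5% of all genes. Negative shares were 36.5% and 38.5%, against 26.2% of all genes. After correction the negative shares were 46.2% and 51.3%, against 22.8%. EIF4G2 and EIF4G3, scaffolds of initiation, had 3.76 ± 0.20 and 3.88 ± 0.20 as deposited, and 2.64 ± 0.19 and 2.37 ± 0.15 after correction. EEF2, the translocation factor, had -2.73 ± 0.30 and -2.04 ± 0.18. EEF2 had ratios of 0.322 and 0.332 in siOCT4 cells at 1%, against 1.02 and 0.863 in NC cells at 1%, and 0.706 and 0.769 in siOCT4 cells at 20%, against 0.290 and 0.346 in NC cells at 20%. Of 52 measured factors, 24 had a positive and 19 a negative interaction past the threshold, around a median of 0.25. After correction 10 passed as positive and 24 as negative, with a median of -0.53. Among 39 aminoacyl-tRNA synthetases, 16 had a positive and 15 a negative interaction past the threshold, around a median of -0.12. GC corrected, 7 were positive and 20 negative, around -0.61. RARS, which charges arginine, had 4.83 ± 0.25 and 3.68 ± 0.26, NARS, which charges asparagine, 4.23 ± 0.24 and 2.08 ± 0.16, and SARS, which charges serine, -2.32 ± 0.17 and -2.45 ± 0.13.

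The medians of several protein-quality lists turned from positive to negative with the correction. As deposited, those of proteasome subunits and endoplasmic reticulum chaperones already lay below the 0.49 of all genes. Their negative shares were 41.9% and 40.0%, against 26.2% of all genes. After correction these shares were 61.3% and 40.0%, against 22.8%. Of 28 CCT chaperonin and cytosolic heat shock genes, 15 had a positive and 8 a negative interaction past the threshold, around a median of 1.03. The counts became 4 positive and 15 negative relative to the GC trend, and the median -0.79. The negative share was 28.6% and then 53.6%, against 26.2% and 22.8% of all genes. HSPD1, the mitochondrial chaperonin that the list also holds, had 3.29 ± 0.18 and 1.79 ± 0.17. HSPA1A and HSPA1B, the inducible HSP70 genes, had -3.14 ± 0.26 and -3.17 ± 0.34 as deposited, and -1.82 ± 0.14 and -1.92 ± 0.17 after correction, but their sequences are nearly identical and their reads may have been shared. Of 31 proteasome subunits, 14 had a positive and 13 a negative interaction past the threshold, around a median of 0.21. After correction 2 passed as positive and 19 as negative, with a median of -0.76. PSMD3, of the regulatory particle, and PSMB5 and PSMB4, of the core, had -2.46 ± 0.39, -1.61 ± 0.26 and -1.54 ± 0.21 as deposited, and -1.68 ± 0.24, -1.76 ± 0.23 and -1.74 ± 0.20 after correction. The call of PSMB5 as deposited was lost after quantile normalization (limma adjusted p = 0.0542). Of 25 endoplasmic reticulum chaperones and partners, 11 had a positive and 10 a negative interaction past the threshold, around a median of 0.21. GC corrected, 5 were positive and 10 negative, around -0.19. SSR4, of the translocon-associated complex, had -2.98 ± 0.30 and -1.42 ± 0.14, CANX, the lectin calnexin, 3.14 ± 0.20 and 1.34 ± 0.15, and HYOU1, a chaperone, -1.70 ± 0.27 and -1.04 ± 0.15. After quantile normalization the call of HYOU1 was lost (limma adjusted p = 0.0794).

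Cell cycle genes had the highest median of all 27 lists as deposited and a median of 42.8% GC. BUB1B, a kinase-like protein of the spindle checkpoint, shows the profile. At 1% oxygen BUB1B read 5.15 and 6.15 in siOCT4 cells and 0.448 and 0.518 in NC cells, and at 20% it read 0.958 and 0.867 in siOCT4 cells and 3.36 and 3.30 in NC cells. siOCT4 cells at 1% and NC cells at 20% were high, with siOCT4 at 1% the higher, and NC cells at 1% were lowest. The interaction of BUB1B was 5.41 ± 0.22 (SE; limma adjusted p = 8.04e-05) and, GC corrected, 2.62 ± 0.17 (adjusted p = 0.000855). CCND1, the G1 cyclin D1, ran against its 57.3% GC with 2.60 ± 0.21 and, after correction, 3.63 ± 0.25, and SMC2, of condensin, had 5.37 ± 0.34 and 1.80 ± 0.19. Of 45 mitotic and cell cycle genes, 35 had a positive and 7 a negative interaction past the threshold, around a median of 3.09. The counts became 20 positive and 10 negative relative to the GC trend, and the median 0.48. The positive share was 77.8% as deposited, against 42.5% of all genes, and 44.4% after correction, against 23.2%. The corrected negative share of 22.2% was near the 22.8% of all genes. Of 48 genes of DNA replication and nucleotide synthesis, 30 had a positive and 11 a negative interaction past the threshold, around a median of 1.09. After correction 14 passed as positive and 11 as negative, with a median of -0.05. These shares were 29.2% and 22.9%, against 23.2% and 22.8% of all genes. The negative share was thus near that of all genes. RFC1, of the clamp loader, ORC2, of the origin recognition complex, and RRM2, of ribonucleotide reductase, had 5.17 ± 0.22, 4.30 ± 0.19 and 4.13 ± 0.20 as deposited, and 2.01 ± 0.19, 1.99 ± 0.16 and 1.37 ± 0.21 after correction.

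Splicing factors of the HNRNP and SR families turned with the correction as a group. Of 32 genes, 19 had a positive and 5 a negative interaction past the threshold, around a median of 0.91. GC corrected, 6 were positive and 12 negative, around -0.48. Positive shares were 59.4% and then 18.8%, against 42.5% and 23.2% of all genes. Negative shares were 15.6% and then 37.5%, against 26.2% and 22.8%. The 3 members ranked highest by the naming rule were positive in both fits, unlike the corrected median of the list. HNRNPH1 had 3.50 ± 0.19 and 2.39 ± 0.19, SRSF1 2.50 ± 0.17 and 1.68 ± 0.17, and SRSF2 1.60 ± 0.19 and 1.60 ± 0.20. At most 3 members per list were named, and none of the 12 negative after correction is among them.

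Lipid synthesis, p53 targets and matrix genes had more negative than positive calls in both fits. Their negative shares were 59.4%, 57.1% and 56.4% as deposited, against 26.2% of all genes. After correction they were 65.6%, 53.6% and 48.7%, against 22.8%. Of 32 genes of cholesterol and fatty acid synthesis, 12 had a positive and 19 a negative interaction past the threshold, around a median of -1.54. The counts became 3 positive and 21 negative relative to the GC trend, and the median -1.17. MVD, of the mevalonate pathway, had -4.67 ± 0.66 and -2.53 ± 0.29, and ELOVL6, a fatty acid elongase, had 4.83 ± 0.26 and 2.40 ± 0.22. Of 28 p53 targets, 10 had a positive and 16 a negative interaction past the threshold, around a median of -1.08. After correction 4 passed as positive and 15 as negative, with a median of -0.87. GADD45G, a growth arrest gene, and BBC3, which encodes the pro-apoptotic PUMA, had -4.54 ± 0.27 and -4.22 ± 0.97 as deposited, and -2.34 ± 0.25 and -2.20 ± 0.64 after correction. The corrected call of BBC3 was lost without 6 of the 8 cultures in turn (limma adjusted p up to 0.0935), with the replicate block (adjusted p = 0.0620) and with a straight GC line (adjusted p = 0.0678). ZMAT3, an RNA-binding protein, had 3.37 ± 0.25 and 3.27 ± 0.42, and its call as deposited was lost after quantile normalization (adjusted p = 0.0679). Of 39 collagen and matrix genes, 10 had a positive and 22 a negative interaction past the threshold, around a median of -0.87. GC corrected, 5 were positive and 19 negative, around -0.53. HAS2, which makes hyaluronan, and VCAN, the proteoglycan versican, had 7.71 ± 0.53 and 5.38 ± 0.26 as deposited, and 4.09 ± 0.38 and 2.91 ± 0.17 after correction. COL4A2, of basement membrane collagen, had -3.21 ± 0.54 and -2.67 ± 0.41.

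**Figure D5:**
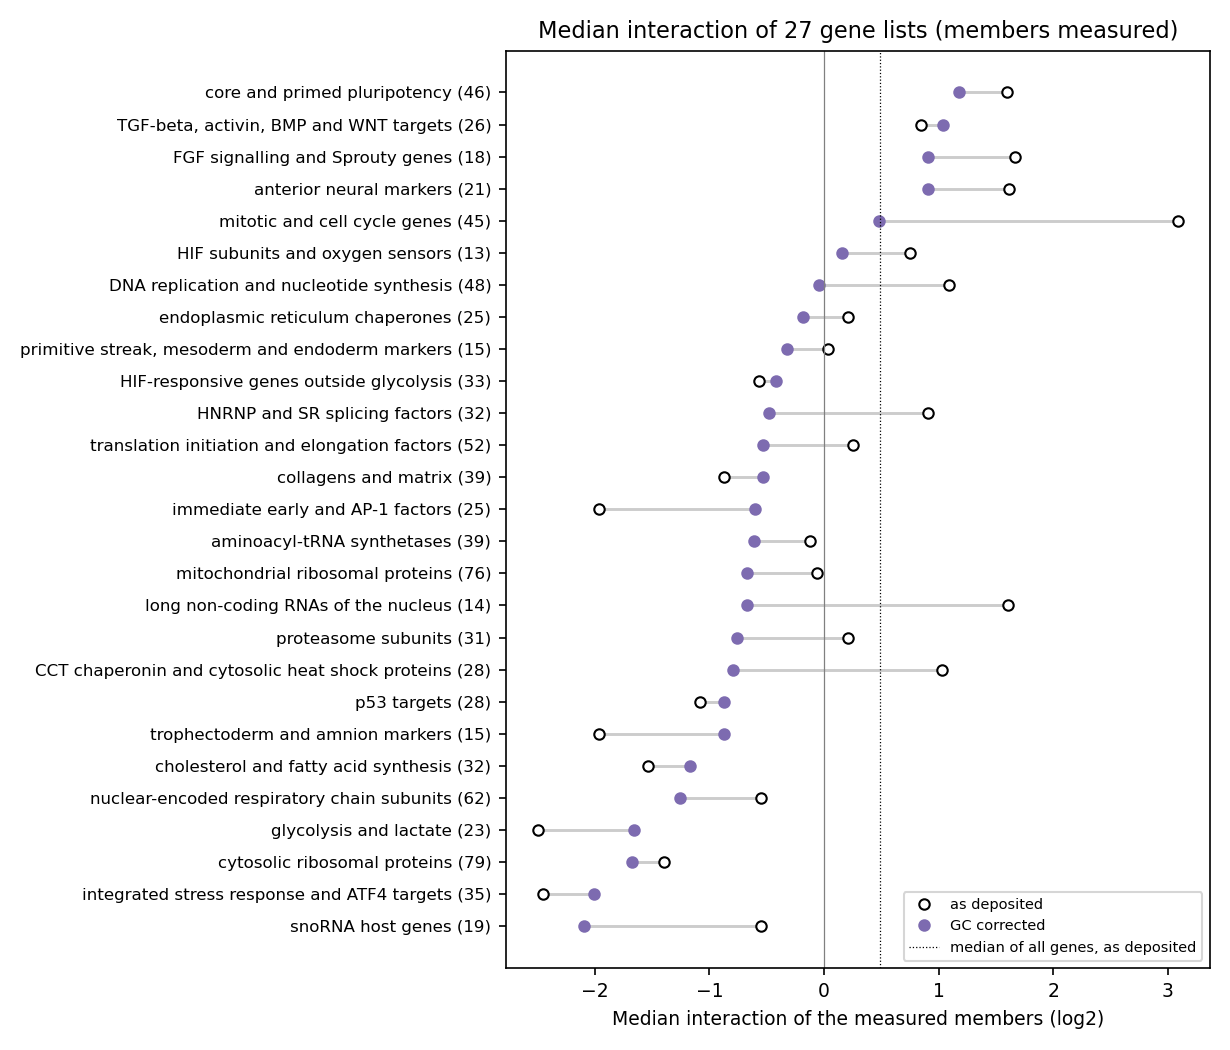
Median interaction (log2, horizontal axis) of the measured members of 27 gene lists, as deposited (open points) and GC corrected (filled points), sorted by the corrected median; the dotted line is the median of all genes as deposited, 0.49. After correction the pluripotency list was highest at 1.17 and the snoRNA hosts lowest at -2.09.

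Against the 23.2% positive and 22.8% negative calls of all genes after correction, the lists with the largest negative shares were cytosolic ribosomal proteins (84.8%), the integrated stress response (82.9%), glycolysis (82.6%) and snoRNA hosts (78.9%). The largest positive shares were those of pluripotency genes (54.3%), FGF signalling (9 of 18) and the TGF-beta, activin, BMP and WNT list (46.2%). The median turned from positive to negative with the correction for 8 lists, namely translation factors, CCT and heat shock genes, endoplasmic reticulum chaperones, proteasome subunits, DNA replication, splicing factors, nuclear non-coding RNAs, and streak, mesoderm and endoderm markers. As deposited, the medians of translation factors, proteasome subunits, endoplasmic reticulum chaperones and streak markers were also below the 0.46 by which centring lowers each value. The lists were chosen with earlier results of these data known and overlap in part, so these shares are descriptions.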

How the data were processed

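The deposited table gives 1 ratio per gene and culture, the RNC level over the RNA level, which the authors computed. The submitters' processing notes name edgeR and hg19 without a role. The mapper, scaling and annotation were not given in the sources used here. Columns marked "sO" were read as siOCT4, and 0 columns were left unmapped. The depth behind a ratio is unknown, so no counting error could be given.

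The log2 ratio of the 15864 genes with a value in all 8 columns was modelled in limma 3.58.1 under R 4.3.3 with statmod 1.5.0 (trend and robust settings, 4 group means, 4 residual degrees of freedom), with two-sided tests and Benjamini-Hochberg adjustment over all genes at 0.05. The GC correction took residuals from a spline of 6 degrees of freedom per column on transcript GC content from GENCODE 29, matched by symbol for 25761 genes. Tables and plots used Python 3.11.15, numpy 2.4.6, pandas 2.3.3 and matplotlib 3.10.9. The fit was tested on simulated data.

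POU5F1 was named first. Then came the 12 genes per direction with the largest interaction, by the smaller of both fits, among genes that passed in both, had no recurrent ratio and had differences at 1% apart from those at 20%. Up to 3 members of each of the 27 lists followed by the same rank, or the member with the largest value where none met it. Of the 95 genes chosen, 4 are not reported here. The members, lists and the GC correction were chosen with earlier results of these data known. Alternatives were median centring, quantile normalization, plain limma settings, 0.01 or 0.1 added to the ratio, dropping every gene that has a recurrent ratio, correction for GC content and length, a straight GC line, the replicate number as a block, and leaving out each culture. Counts of single libraries were not analysed here.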

Additional observations from a re-analysis of the deposited data

Results flagged for a closer look

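Every result here was picked out because the siOCT4 effect differed between the 2 oxygen levels by a test of that difference, in each case the interaction itself. The count of genes was 10893 as deposited and 7022 relative to the GC trend, and the interaction of the GC slopes was -2.30 per 10 percentage points (exact permutation p = 0.0286, the smallest possible). Values below are interactions on the log2 scale as deposited, for 91 of the 95 genes chosen by rule, and no cause of any of them was tested.

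Among the 12 positive genes of the naming rule the interaction was 8.99 for APELA, 5.61 for TRIM2, 5.85 for IPO7, 5.84 for ABCA1, 4.77 for ZNF879 and 4.57 for SIX3. Next came 4.29 for CIPC, 4.47 for CYP1B1, 4.15 for VASH2, 5.06 for RAI14, 4.34 for REST and 4.13 for STOX2. POU5F1, named as the target of the siRNA, had -1.68. Among the 12 negative genes of the rule the interaction was -8.38 for GDF15, -5.96 for DDIT4, -5.82 for UPP1, -6.62 for SLC16A3, -4.37 for RPL36A and -5.67 for IGFBP2. It was also -5.68 for TRIB3, -3.86 for DDIT3, -3.82 for ATF3, -5.81 for DUSP8, -4.43 for NPPB and -4.96 for TXNRD2.

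Cytosolic ribosomal proteins had -3.06 for RPS3. Mitochondrial ribosomal proteins had -3.18 for MRPL28, -1.82 for MRPL10 and -1.49 for MRPS18B. Nuclear-encoded respiratory chain subunits had -2.37 for COX5B, -2.14 for NDUFB2 and -2.64 for NDUFB8. Glycolytic genes had -3.25 for PGK1 and -3.93 for ALDOC. HIF-responsive genes had -3.32 for BHLHE40 and -3.07 for STC2. Immediate early and AP-1 factors had -4.36 for JUN and -2.43 for IER5. Pluripotency genes had 6.41 for USP44. TGF-beta, BMP and WNT genes had 3.81 for ID2, 3.96 for GREM1 and -1.97 for TGFBI. FGF genes had 1.90 for FGF8, 2.03 for FGFR2 and 2.17 for IL17RD. Trophectoderm and amnion markers had -2.66 for KRT8, -2.55 for KRT19 and -1.97 for KRT18. Anterior neural markers had 3.10 for FEZF1 and 3.27 for MAP2. Endoderm markers had -5.12 for SOX17. Matrix genes had 7.71 for HAS2, 5.38 for VCAN and -3.21 for COL4A2.

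Translation initiation and elongation factors had 3.76 for EIF4G2, 3.88 for EIF4G3 and -2.73 for EEF2. Aminoacyl-tRNA synthetases had 4.83 for RARS, -2.32 for SARS and 4.23 for NARS. Proteasome subunits had -2.46 for PSMD3, -1.61 for PSMB5 and -1.54 for PSMB4. CCT chaperonin and cytosolic heat shock proteins had -3.17 for HSPA1B, -3.14 for HSPA1A and 3.29 for HSPD1. Endoplasmic reticulum chaperones had -2.98 for SSR4, 3.14 for CANX and -1.70 for HYOU1. Mitotic and cell cycle genes had 5.41 for BUB1B, 2.60 for CCND1 and 5.37 for SMC2. Replication genes had 5.17 for RFC1, 4.30 for ORC2 and 4.13 for RRM2. HNRNP and SR splicing factors had 3.50 for HNRNPH1, 2.50 for SRSF1 and 1.60 for SRSF2. Lipid synthesis genes had -4.67 for MVD and 4.83 for ELOVL6. P53 targets had 3.37 for ZMAT3, -4.54 for GADD45G and -4.22 for BBC3. Long non-coding RNAs of the nucleus had 4.63 for TUG1 and 2.97 for OIP5-AS1. Hosts of snoRNAs had -2.77 for SNHG15, -1.98 for SNHG8 and -3.14 for SNHG11. HIF subunits and oxygen sensors had 5.07 for HIF1A, 3.55 for KDM6A and -0.55 for VHL. The cultures of RPL36A and SOX17 disagreed by more than for the others, as described above.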

How the results depend on the processing

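No gene named here changed the sign of its interaction under any alternative run, as deposited or GC corrected. List medians did: of 27, 8 turned from positive to negative GC corrected, 9 corrected for GC content and length, and 4 after median centring. The interaction count of 10893 of 15864 genes became 7034 after quantile normalization. It was 7022 of 15261 GC corrected and 6909 of 15261 corrected for GC content and length. With only the 8166 genes without a recurrent ratio 6931 passed, a larger share of fewer genes. The count at 1% oxygen became 6405 and that at 20% 1838 after quantile normalization, and the count at 20% became 2707 GC corrected and 2771 corrected for GC content and length. Leaving out each culture gave 9565 to 11202 for the interaction, 7460 to 10297 at 1% and 5063 to 9244 at 20%, and, GC corrected, 5090 to 6912, 4736 to 7407 and 2 to 2325. The lowest counts at 20% were those without the first or the second siOCT4 culture at 20%. The slope interaction ranged from -2.39 to -2.13. These fits take the spread of a group reduced to 1 culture from the remaining groups.

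Across genes, the deviations of same-numbered cultures from their group means correlated at -0.23 to 0.02. With 2 cultures per group and genes that are not independent, this cannot decide whether the numbers pair the cultures. With the replicate number as a block the interaction count was 10484 and, GC corrected, 6322; the counts at 1% and 20% were 9063 and 7354, and, GC corrected, 6264 and 1338. Of the 95 genes chosen by rule, 84 as deposited and 88 GC corrected kept their direction and side of the threshold under every alternative run. With 2 cultures per group and no depth, small interactions could not be resolved, and the causes of these shifts were not tested.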
